A study of Mus musculus with 22 samples.

Results

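The 31 genes described here encode the enzymes of glycolysis, the carriers that bring glucose and amino acids into the cell and lactate out of it, and a few regulators of these steps. They were taken by name from a list of glucose importers, glycolytic enzymes, lactate and pyruvate genes, amino acid transporters and the transcription factor genes Myc and Hif1a, and all 31 matched a gene among 21887 protein-coding genes of RefSeq (GRCm38.p6, the assembly of mm10). Peaks were counted over each gene body with 10 kb added on both sides, and 17 of the 31 windows also held part of a neighbouring protein-coding gene. The peaks came from chromatin immunoprecipitation sequencing (ChIP-seq) of mouse regulatory T cells (Treg cells, which restrain immune responses and depend on the transcription factor Foxp3) taken from spleen and lymph nodes. Every sample received Cell Stimulation Cocktail for 1 h. The genotypes are wild type (WT) and a deletion that the labels call IkE5 (IkE5 from here on), and Ikzf1, which encodes the zinc finger factor Ikaros, stands in the title of the series. The labels give no strain, age, sex or driver of the deletion, and whether libraries of the same group come from different animals is not said. Foxp3, the acetyltransferase and coactivator p300, the calcium-activated factor NFAT1 and the histone mark H3K27ac (acetylated histone H3, found at active promoters and enhancers) were each mapped with 2 libraries per genotype, and Ikaros with 2 libraries of WT cells.

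Glycolysis splits glucose into pyruvate and yields energy and building blocks quickly, and activated T cells raise glucose import, glycolytic enzymes and amino acid import together. Myc and the hypoxia-inducible factor encoded by Hif1a are the transcription factors best known for driving these genes. Treg cells are known to rely less on glycolysis than effector T cells, and Foxp3 has been described as lowering glycolysis and Myc activity in them. Phosphorylated glucose is committed to glycolysis by phosphofructokinase, while lactate dehydrogenase and pyruvate dehydrogenase kinase turn pyruvate towards lactate and away from the mitochondria.

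The lists held between 3435 peaks (NFAT1, IkE5 library 2) and 53032 peaks (H3K27ac, WT library 1), and read depth is unknown because a list carries no reads. Peak number therefore moves with depth, enrichment and threshold as well as with binding, and fewer cells of a type cannot be told apart from weaker occupancy per cell. All 9 matched T cell and Treg markers carried H3K27ac, with a summed covered length, scaled to the total of each library, of 261 and 269 kb in WT and 294 and 292 kb in IkE5. The B cell list summed to 27.8 and 32.4 kb in WT and 24.5 and 26.2 kb in IkE5, the myeloid list to 16.1 and 15.3 against 10.9 and 12.8 kb, and the CD8 T and natural killer cell list to 22.9 and 11.1 against 32.8 and 30.5 kb. The B cell gene Ms4a1, the myeloid genes Lyz2, Csf1r, Adgre1 and S100a8, and Ncr1 of natural killer cells had no H3K27ac peak in any library. The part of these cell types in the values below was not tested.

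Every one of the 31 genes was marked by H3K27ac in all 4 libraries of that mark, against 61.4% to 65.0% of all genes per library. Ikaros had a peak at 30 and 28 of the 31 genes in its 2 libraries, and at 28 in both. Foxp3 had one at 25 and 26 genes in WT and at 26 and 24 in IkE5. p300 was found at 24 and 20 genes in WT and at 19 in each IkE5 library, and NFAT1 at 19 and 18 genes in WT and at 15 and 10 in IkE5. As background, the same shares were taken over the 13313 genes that carried H3K27ac in both libraries of WT cells. Peaks of Ikaros were at 96.8% and 90.3% of the members and at 89.4% and 95.5% of those genes. Foxp3 was at 77.4% to 83.9% of the members per library and at 82.2% to 84.1% of those genes. The p300 shares were 77.4% and 64.5% of the members in WT and 61.3% in each IkE5 library, where the acetylated genes gave 56.4% and 48.6% (WT) and 54.7% and 43.4% (IkE5). The NFAT1 shares were 61.3% and 58.1% of the members in WT and 48.4% and 32.3% in IkE5, where the acetylated genes gave 37.6% and 34.7% (WT) and 21.7% and 15.6% (IkE5). Member shares of p300 and NFAT1 thus lay above the background in all 4 libraries of each. The members had a median length of 19.8 kb and the acetylated genes of 22.3 kb.

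**Figure D1:**
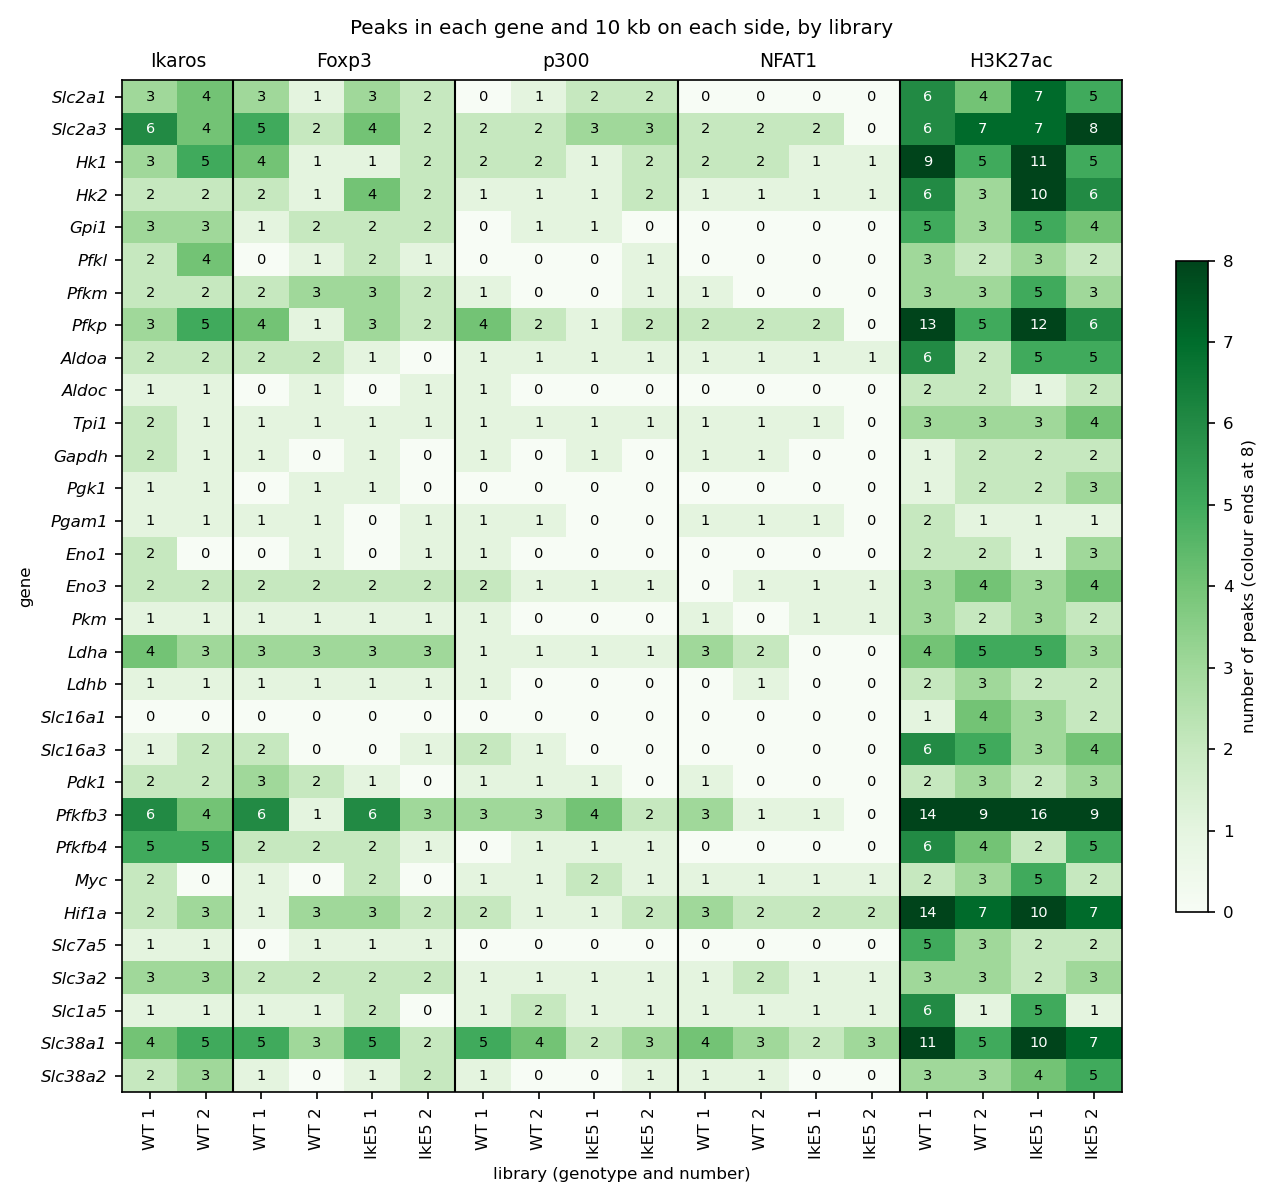
Peak counts over gene bodies with 10 kb flanks (rows, 31 genes) in each of 18 libraries (columns, grouped by target). H3K27ac is present in every library of every gene, Slc16a1 has no peak of any factor, and the NFAT1 columns empty from WT to IkE5 at Gapdh, Ldha and Slc38a2.

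Summed over the 31 genes, the Foxp3 peaks numbered 57 and 41 for WT and 58 and 40 for IkE5, so that the libraries numbered 1 were high and those numbered 2 low in both genotypes. The p300 peaks numbered 38 and 29 for WT and 27 and 29 for IkE5, 83.6% of the WT number, while its whole lists held 102% of the WT number. The genotypes were equal for p300 in the libraries numbered 2, so this difference came from the libraries numbered 1. For NFAT1 the WT libraries had 31 and 26 peaks and the IkE5 libraries 19 and 13, with both IkE5 libraries below both WT libraries. This was 56.1% of the WT number, against 56.9% for the whole NFAT1 lists, so the fall at these genes was the size of that of the whole lists. The H3K27ac peaks numbered 153 and 110 for WT and 152 and 120 for IkE5.

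Of the 31 genes, 26 had a start in the RefSeq promoter table, and the 250 bases before that start are shown for 4 of them. These 4 starts had peaks in 4 to 17 of 18 libraries, and some starts not shown had fewer. Hk1, which encodes the widely expressed hexokinase, had a peak over its promoter window (250 bases before to 50 after the start) in 17 of 18 libraries, all but NFAT1 in IkE5 library 2. This is the window of 1 of 2 listed starts of Hk1, and the other had a peak in 0 of 18 libraries. Pgam1, the phosphoglycerate mutase gene, had peaks in 14 libraries and lost p300 in both IkE5 libraries. Ldha, the gene of the muscle-type lactate dehydrogenase subunit, had peaks in 11 libraries at the start shown and in 7 at its other listed start. Slc16a1, which encodes the lactate carrier MCT1, had H3K27ac alone, in all 4 libraries. Capitals mark GGGAA, the core of the Ikaros site, and ACGTG, a core shared by sites of hypoxia-inducible factors and of Myc, each on either strand (TTCCC and CACGT on the strand shown).
Hk1, chr10:62340422-62340671, minus strand: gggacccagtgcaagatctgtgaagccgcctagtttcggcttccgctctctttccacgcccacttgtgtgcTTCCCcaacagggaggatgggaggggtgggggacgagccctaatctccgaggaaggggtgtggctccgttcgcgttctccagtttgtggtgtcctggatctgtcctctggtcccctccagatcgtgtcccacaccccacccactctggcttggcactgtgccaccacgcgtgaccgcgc
Pgam1, chr19:41911621-41911870, plus strand: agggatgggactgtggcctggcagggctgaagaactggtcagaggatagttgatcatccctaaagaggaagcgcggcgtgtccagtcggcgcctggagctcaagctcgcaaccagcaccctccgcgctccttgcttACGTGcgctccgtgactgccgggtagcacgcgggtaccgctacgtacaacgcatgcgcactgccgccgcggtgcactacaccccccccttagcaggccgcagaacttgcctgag
Ldha, chr7:46845554-46845803, plus strand: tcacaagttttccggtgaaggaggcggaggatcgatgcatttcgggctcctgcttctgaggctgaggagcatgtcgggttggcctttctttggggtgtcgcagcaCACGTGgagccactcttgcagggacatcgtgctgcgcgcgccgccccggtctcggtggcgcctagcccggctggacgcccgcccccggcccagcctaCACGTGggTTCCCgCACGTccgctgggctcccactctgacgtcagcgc
Slc16a1, chr3:104638414-104638663, plus strand: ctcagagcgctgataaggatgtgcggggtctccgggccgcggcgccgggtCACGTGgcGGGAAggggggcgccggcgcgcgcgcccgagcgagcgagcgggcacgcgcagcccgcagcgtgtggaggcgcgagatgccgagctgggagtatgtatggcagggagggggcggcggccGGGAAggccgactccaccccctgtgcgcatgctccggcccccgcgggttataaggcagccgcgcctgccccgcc
The sequences are those of RefSeq, GRCm38.p6. Hk1 held GGGAA 1 time and no ACGTG, Pgam1 held ACGTG 1 time and no GGGAA, and Slc16a1, which had no factor peak, held each of them 2 times. Ldha held ACGTG 5 times over both strands and GGGAA 1 time. These counts include CACGTG, the E-box bound by Myc, which is present 2 times in Ldha and 1 time in Slc16a1. It is a palindrome in which ACGTG is read on each strand, so the 2 ACGTG counts of Slc16a1 are 1 site. Likewise, each of the 2 CACGTG of Ldha gives 2 of its 5 ACGTG counts. Over all 39 member windows, ACGTG was present in 41.0% and GGGAA in 74.4%, against 16.6% and 56.2% of 32807 windows of the same length. CACGTG was present in 12.8% against 6.02%, the NFAT core GGAAA (both strands, overlapping GGGAA where GGGAAA is read) in 46.2% against 55.6%, and the forkhead site GTAAACA in 2.56% against 3.16%. A match of letters is a description and shows no binding. Some windows of 1 gene overlap each other, and the comparison windows include silent genes.

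H3K27ac covered length, the number of bases of a gene and its flanks that lie in peaks, was the graded measure available. It was scaled to the total of each library and compared with limma over 12714 genes, as log2 of the scaled length plus 1000 bp, a scale that understates changes of short lengths. Of all genes 0.739% were higher and 0.385% lower in IkE5 at an adjusted p under 0.05, that is 94 and 49 genes. These calls depend on the scaling, with 0 and 0 genes without it and 24 and 12 with the medians of the libraries set equal. Of the 31 members, 0 were higher and 0 lower, and 2 of them, Hk2 and Slc16a3, had an unadjusted p under 0.05. Log2 differences were positive for 15 members and negative for 16, with a median of 0.00 and a range from -0.66 (Pdk1) to 1.40 (Hk2), against a median of -0.02 over all genes tested. Both IkE5 values lay above both WT values at 4 members (12.9%, against 18.5% of all genes) and below both at 3 (9.68%, against 21.1%). Leaving out a library leaves 1 library in its group, whose spread then does not enter. In such fits the numbers of all genes called higher and lower moved both up and down from 94 and 49.

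**Figure D2:**
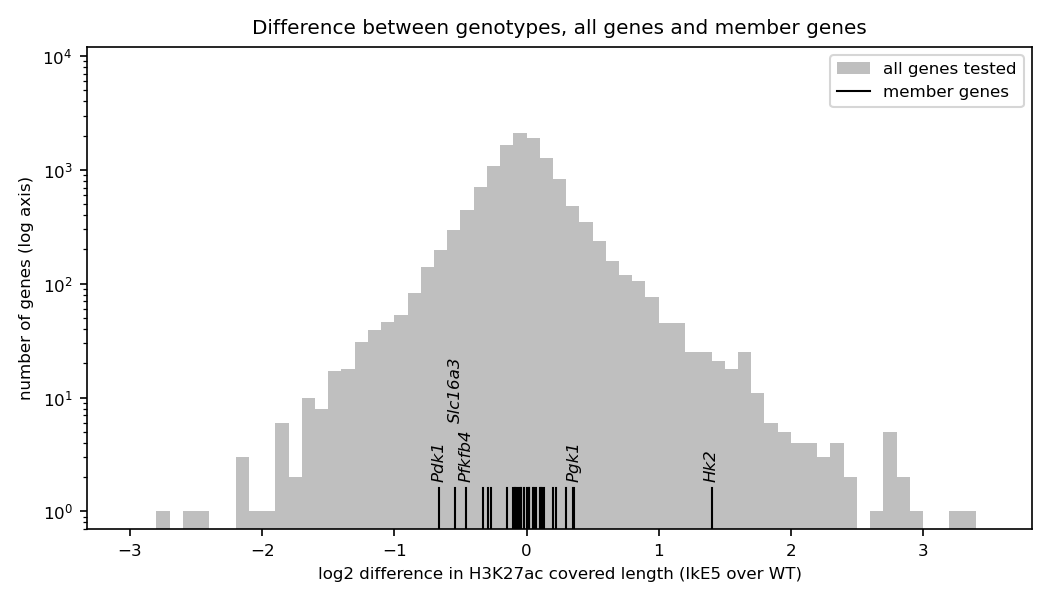
Histogram of the log2 difference in H3K27ac covered length (IkE5 over WT, x axis) for 12714 genes (grey, log count axis), with the 31 members as black ticks. Hk2 at 1.40 stands apart from the other members, which lie between -0.66 and 0.36.

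**Figure D3:**
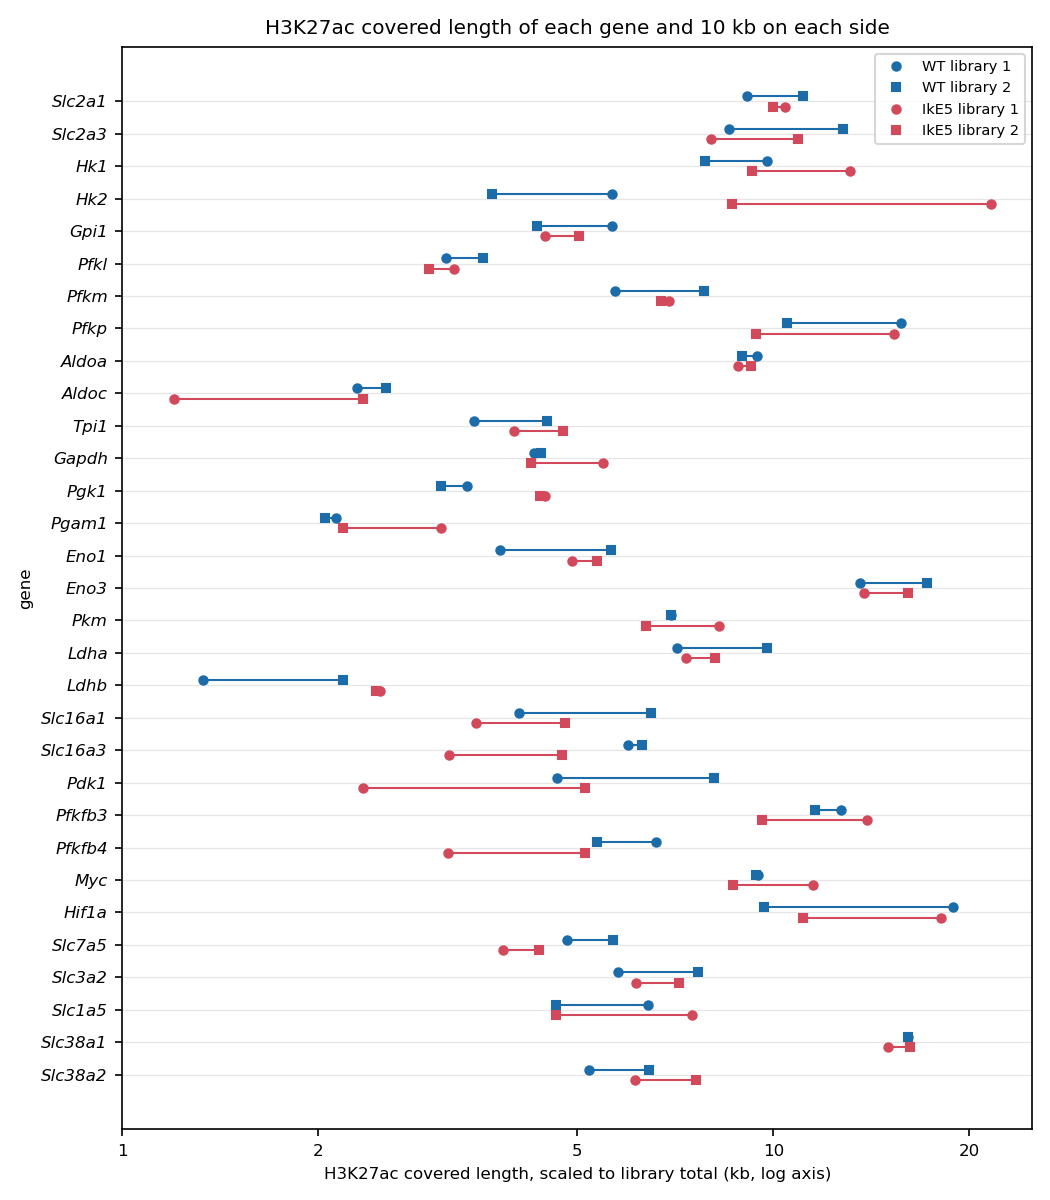
Scaled H3K27ac covered length in kb (log axis) of the 31 genes in 2 WT (blue) and 2 IkE5 (red) libraries, with circles for libraries numbered 1, squares for those numbered 2 and a line joining the 2 values of a genotype. Hk2 is the member with the widest separation, 5.65 and 3.70 kb in WT and 21.6 and 8.65 kb in IkE5.

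Regions were then classed by genotype. Overlapping peaks were joined across the 4 libraries of each target, and a joined region was called WT only if it held a peak from each WT library and none from IkE5, or IkE5 only when the genotypes were exchanged. An exact permutation test of 2 values against 2 cannot go below 0.333 (2-sided), so these classes are descriptions, read against all genes with a region of the target. For p300, 6 of 28 members had a WT only region (21.4%, against 11.3% of genes) and 3 had an IkE5 only region (10.7%, against 8.56%). For NFAT1, 5 of 21 members had a WT only region (23.8%, against 31.1%) and 3 an IkE5 only region (14.3%, against 4.61%). For Foxp3, 2 of 30 members had a WT only region (6.67%, against 6.31%) and 0 an IkE5 only region (against 7.25%). For H3K27ac, 1 of 31 members had a WT only region (3.23%, against 13.3%) and 4 an IkE5 only region (12.9%, against 11.2%). Counted by region, the members had 3 WT only and 0 IkE5 only regions among 96 of Foxp3, where all Foxp3 regions gave 2.44% and 3.22%. For p300 they were 7 and 3 of 56 (against 5.63% and 6.01%), for NFAT1 5 and 3 of 41 (against 19.4% and 3.72%), and for H3K27ac 1 and 4 of 184 (against 4.69% and 3.90%). Of the 31 members, 16 had no region of either class for any target. When a library is left out, the class asks for fewer lists, and the counts rise, for p300 WT only to between 7 and 14 (without WT library 2) and for NFAT1 WT only to between 6 and 11 (without WT library 2 or IkE5 library 1).

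The 7 WT only p300 regions of the members lay at Hk2, Pfkp, Pgam1, Slc16a3, Pdk1 and, as a pair, Slc38a1. All 7 overlapped peaks of both Ikaros libraries and H3K27ac peaks in all 4 libraries. None of the 3 IkE5 only p300 regions, at Hk2, Pfkfb3 and Pfkfb4, overlapped peaks of both Ikaros libraries. Over the genome the same overlap with Ikaros was found at 74.9% of 1045 WT only and 38.1% of 1115 IkE5 only p300 regions. Of 13 member regions with p300 in all 4 libraries, 6 (46.2%) overlapped both Ikaros libraries, against 82.4% of 4239. For NFAT1, 3 of 5 WT only and 0 of 3 IkE5 only regions of the members overlapped both Ikaros libraries, against 76.2% and 25.0% over the genome. Ikaros was mapped in the WT cells whose lists also define the WT only class.

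Glucose import. Slc2a1 and Slc2a3 encode GLUT1 and GLUT3, the glucose carriers of T cells. Slc2a1 (chr4) had a scaled H3K27ac length of 9.11 and 11.1 kb in WT and 10.4 and 10.0 kb in IkE5, overlapping groups with a log2 difference of 0.02 ± 0.21 (SE, limma adjusted p = 0.999). Its p300 peaks numbered 0 and 1 in WT and 2 in each IkE5 library, and it had no NFAT1 peak in any library. A site 18.7 kb after its start had Ikaros and Foxp3 peaks in every library of those targets and p300 in 1 IkE5 library. Slc2a3 had 8.55 and 12.8 kb in WT and 8.03 and 10.9 kb in IkE5, again overlapping (log2 difference -0.15 ± 0.25, limma adjusted p = 0.949). At 2 sites, chr6:122742305-122743039 in Slc2a3 and chr6:122810341-122811668 beyond its higher-coordinate end, all factor libraries but 1 of NFAT1 in IkE5 had a peak. A narrow H3K27ac region of 626 bp at chr6:122758377-122759002, in the gene, was IkE5 only.

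Hexokinases. Hexokinase traps glucose in the cell by phosphorylation, and Hk2 is the isoform that activated and proliferating cells induce. Hk2 (chr6:82725025-82774454, minus strand) had a scaled H3K27ac length of 5.65 and 3.70 kb in WT and 21.6 and 8.65 kb in IkE5. Both IkE5 libraries lay above both WT libraries, and IkE5 library 1 was the highest by far. The means were 4.68 ± 1.37 and 15.1 ± 9.16 kb (SD, n = 2 each). The log2 difference of 1.40 ± 0.37 (SE) did not pass (limma adjusted p = 0.125) and ranked 166th in size of 12714 genes. It fell to 0.79 without IkE5 library 1 and to 1.15 without WT library 2, and was 2.01 without IkE5 library 2 and 1.65 without WT library 1. Each of these fits leaves 1 library in a group, whose spread then does not enter, so only sizes are given. A region at chr6:82748713-82755538, centred 22.3 kb after the start, was IkE5 only and had 6.83 kb covered in IkE5 library 1 and 1.20 kb in IkE5 library 2, and it began 48 bp from the next region, where WT library 1 also had a peak.

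The p300 and NFAT1 peaks of Hk2 lay at different places in the 2 genotypes. At chr6:82740162-82740761, 34.0 kb after the start, all Ikaros and all Foxp3 libraries of both genotypes had a peak, and p300 and NFAT1 had a peak in both WT and in neither IkE5 library. In IkE5 a p300 region appeared in both libraries at chr6:82744584-82745116, 29.6 kb after the start, where Foxp3 had a peak in 1 IkE5 library and Ikaros had none. An NFAT1 region appeared in both IkE5 libraries at chr6:82771926-82772477, 2.25 kb after the start, where Foxp3 had a peak in 1 WT library. Hk2 thus had 1 NFAT1 peak in each of the 4 libraries, and 1, 1, 1 and 2 p300 peaks in WT 1, WT 2, IkE5 1 and IkE5 2, although no region of p300 or NFAT1 was shared by the genotypes. H3K27ac at the 34.0 kb site was present in all 4 libraries.

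**Figure D4:**
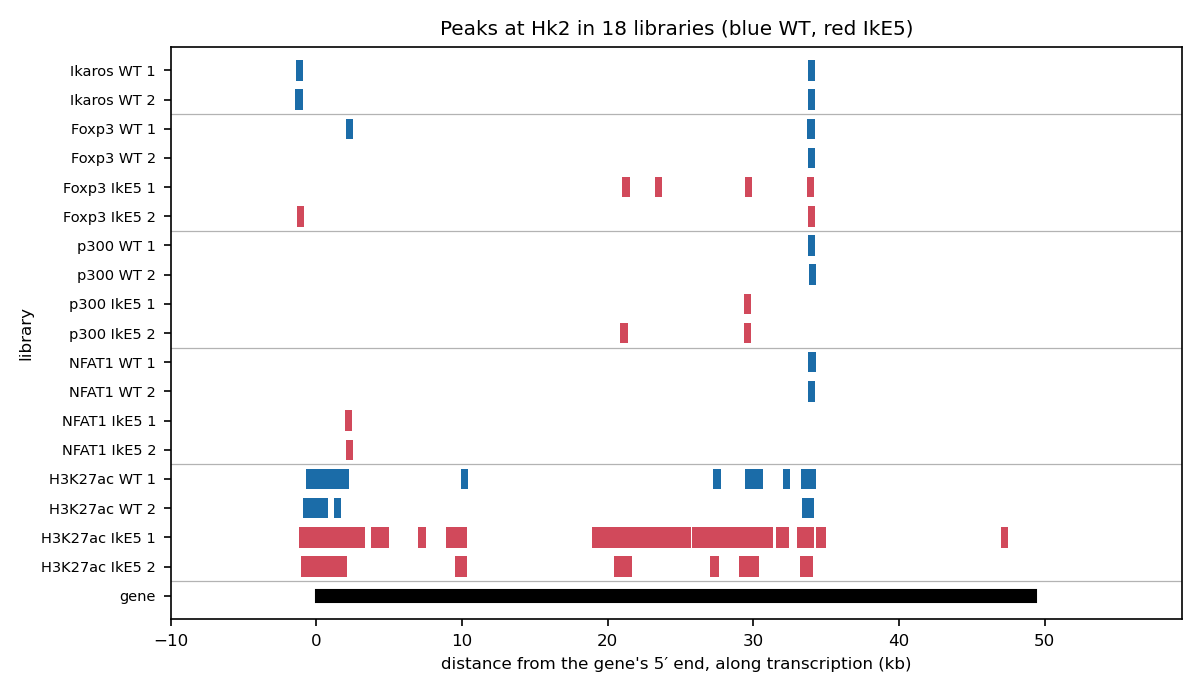
Peaks in 18 libraries (rows, blue WT, red IkE5) along Hk2 and 10 kb on each side, in kb from the 5′ end of the gene along transcription, with the gene as a black bar. The WT peaks of p300 and NFAT1 stack at 34.0 kb under Ikaros and Foxp3, and the regions found in both IkE5 libraries sit at 29.6 kb (p300) and 2.25 kb (NFAT1).

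Hk1 had 9.76 and 7.86 kb of scaled H3K27ac in WT and 13.1 and 9.26 kb in IkE5, with overlapping groups (log2 difference 0.30 ± 0.23, limma adjusted p = 0.742). Its promoter site at chr10:62339978-62340812 had Ikaros, Foxp3 and p300 in every library of those targets, and NFAT1 in both WT and 1 IkE5 library. No region of Hk1 was WT only or IkE5 only for any target.

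Other enzymes of the upper part of the pathway. Gpi1 (glucose-6-phosphate isomerase), Pfkl, Pfkm and Pfkp (the phosphofructokinase subunits) and Aldoa and Aldoc (aldolases) had log2 differences in H3K27ac length between -0.33 (Aldoc) and 0.02 (Pfkm), and all 6 had overlapping groups. Pfkp, the platelet-type subunit, had 15.7 and 10.5 kb in WT and 15.3 and 9.40 kb in IkE5, so that the number of the library separated the values and the genotype did not. Its p300 peaks numbered 4 and 2 in WT and 1 and 2 in IkE5, and a p300 region 1.47 kb after the start (chr13:6647004-6647589) was WT only, with Ikaros in both libraries there. Aldoa had 9.44 and 8.96 kb in WT and 8.82 and 9.23 kb in IkE5, and 1 p300 and 1 NFAT1 peak in every library. Its single IkE5 only H3K27ac region (chr7:126796581-126797143) was 563 bp wide and lay 90 bp from the next region.

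Enzymes of the lower part of the pathway. Tpi1, Gapdh, Pgk1, Pgam1, Eno1, Eno3 and Pkm take the 3-carbon sugars to pyruvate. Log2 differences in H3K27ac length were positive for 6 of these 7 genes (median 0.12) and for 5883 of all 12714 genes tested. None of the 7 passed the test. Pgk1 (phosphoglycerate kinase) had 3.38 and 3.09 kb in WT and 4.45 and 4.38 kb in IkE5, groups that did not overlap (log2 difference 0.36 ± 0.19, limma adjusted p = 0.523). Pgam1 had 2.13 and 2.05 kb in WT and 3.09 and 2.18 kb in IkE5 (log2 difference 0.22 ± 0.21, limma adjusted p = 0.825), again without overlap. The p300 region over its start (chr19:41911468-41912053), in the promoter printed above, was WT only, while Ikaros had a peak there in both libraries and NFAT1 in both WT libraries and IkE5 library 1.

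Gapdh, a gene often used as a constant reference, had 4.29 and 4.39 kb in WT and 5.48 and 4.24 kb in IkE5 (log2 difference 0.13 ± 0.21, limma adjusted p = 0.946). An NFAT1 region 1.39 kb after its start (chr6:125164107-125164665) was WT only, and Gapdh had no NFAT1 peak in either IkE5 library. Pkm, the pyruvate kinase gene whose M2 isoform prevails in proliferating cells, had 6.96 kb in each WT library and 8.24 and 6.38 kb in IkE5 (log2 difference 0.05 ± 0.21, limma adjusted p = 0.991). NFAT1 at Pkm ran the other way, with an IkE5 only region 1.32 kb after the start at chr9:59658292-59658810. WT library 1 of NFAT1 had a peak of its own nearer to the start of Pkm, so the gene had NFAT1 in 1 WT and both IkE5 libraries.

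Lactate and pyruvate. Ldha is a classic target of Myc and of hypoxia-inducible factors in this pathway. It had 7.12 and 9.76 kb of scaled H3K27ac in WT and 7.34 and 8.13 kb in IkE5, overlapping groups (log2 difference -0.10 ± 0.22, limma adjusted p = 0.970). NFAT1 peaks at Ldha numbered 3 and 2 in WT and 0 in both IkE5 libraries, and the region at chr7:46845889-46846453, 0.367 kb after the start of the promoter printed above, was WT only. At the joined site there (chr7:46845499-46846853) Ikaros, Foxp3 and p300 each had a peak in every library. The window of Ldha overlaps that of Ldhc, its testis-type relative.

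Pdk1, whose kinase holds pyruvate back from the mitochondria, had the lowest log2 difference of the members. Its scaled H3K27ac length was 4.65 and 8.10 kb in WT and 2.34 and 5.13 kb in IkE5, and the groups overlapped. The log2 difference of -0.66 ± 0.33 (SE) did not pass (limma adjusted p = 0.465). It was -1.10 without IkE5 library 2, -1.01 without WT library 1, -0.23 without IkE5 library 1 and -0.32 without WT library 2, fits that leave 1 library in a group. Over the gene body alone it was -0.28. Upstream of Pdk1, Foxp3 had 2 WT only regions, at chr2:71863435-71863960 and chr2:71866473-71867076, centred 9.53 and 6.45 kb before the start. At the nearer of them p300 was WT only as well (chr2:71866392-71867010), both Ikaros libraries had a peak, and H3K27ac was present in all 4 libraries. Over the start itself Ikaros had a peak in both libraries, Foxp3 in library 1 of each genotype and p300 in IkE5 library 1 alone.

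Slc16a3, the gene of the lactate exporter MCT4, had 5.97 and 6.29 kb in WT and 3.17 and 4.74 kb in IkE5, with both IkE5 values below both WT values (log2 difference -0.54 ± 0.22, limma adjusted p = 0.345). A p300 region 7.92 kb before its start (chr11:120940826-120941466) was WT only, and p300 had no peak at the gene in either IkE5 library. The window of Slc16a3 holds part of Csnk1d. Slc16a1 had 4.07 and 6.48 kb in WT and 3.49 and 4.79 kb in IkE5 (limma adjusted p = 0.813) and no peak of Ikaros, Foxp3, p300 or NFAT1 in any of the 14 libraries. Ldhb, the heart-type subunit gene, had 1.33 and 2.18 kb in WT and 2.49 and 2.45 kb in IkE5, with IkE5 above WT (limma adjusted p = 0.640).

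Control of phosphofructokinase. Pfkfb3 and Pfkfb4 encode enzymes that set the level of fructose 2,6-bisphosphate, the activator of phosphofructokinase. Pfkfb3 had 12.7 and 11.6 kb in WT and 13.9 and 9.60 kb in IkE5 (log2 difference -0.07 ± 0.23, limma adjusted p = 0.988). Its p300 peaks numbered 3 and 3 in WT and 4 and 2 in IkE5, with an IkE5 only region inside the gene at chr2:11529927-11530560, 23.7 kb after the nearest listed start. Pfkfb4 had 6.59 and 5.35 kb in WT and 3.16 and 5.14 kb in IkE5, with the IkE5 values lower (log2 difference -0.46 ± 0.24, limma adjusted p = 0.514). The IkE5 only p300 region counted for Pfkfb4 (chr9:109038943-109039480) lies 6.71 kb beyond the gene, in Shisa5.

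Transcription factors. Myc had 9.47 and 9.40 kb of scaled H3K27ac in WT and 11.5 and 8.67 kb in IkE5, overlapping groups (log2 difference 0.07 ± 0.22, limma adjusted p = 0.984). A site below the lower-coordinate end of Myc, chr15:61981367-61981934, had p300 and NFAT1 in all 8 libraries of those targets, and Ikaros in 1 of 2 and Foxp3 in 2 of 4. Foxp3 and Ikaros at Myc came from libraries numbered 1 alone, with no peak of either in the libraries numbered 2. Hif1a had 18.9 and 9.66 kb in WT and 18.1 and 11.1 kb in IkE5, again separated by library number and not by genotype (log2 difference 0.06 ± 0.33, limma adjusted p = 0.995). An H3K27ac region of 1587 bp, 1.38 kb below the lower-coordinate end of Hif1a (chr12:73898361-73899947), was the single WT only H3K27ac region of the members. Members with such a region numbered 4 when peaks were joined at an overlap of at least 250 bp, and 0 over the gene body alone. The Hif1a region had 1.59 and 0.500 kb covered in the WT libraries and lay 320 bp from the next H3K27ac region. NFAT1 kept its peaks at Hif1a, with 3 and 2 in WT and 2 in each IkE5 library.

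Amino acid transporters. Slc7a5 and Slc3a2 encode the light and heavy chain of the leucine transporter LAT1, and Slc1a5, Slc38a1 and Slc38a2 encode glutamine and neutral amino acid carriers. Slc7a5 had 4.82 and 5.67 kb in WT and 3.84 and 4.36 kb in IkE5, groups that did not overlap (log2 difference -0.29 ± 0.20, limma adjusted p = 0.683). The direction turned with peaks of at least 1000 bp (0.24), and over the gene body alone the difference was -0.05. Slc7a5 had no p300 or NFAT1 peak in any library. Slc3a2 had 5.77 and 7.65 kb in WT and 6.14 and 7.16 kb in IkE5 (log2 difference 0.00 ± 0.22, limma adjusted p = 0.999). At chr19:8711850-8712423, 1.76 kb after the listed start of Slc3a2, Ikaros, p300 and NFAT1 had peaks in every library and Foxp3 in 3 of 4. That start lies inside the gene body, whose 5′ end is at 8723369 on the minus strand. Slc1a5 had 6.42 and 4.64 kb in WT and 7.50 and 4.63 kb in IkE5 (limma adjusted p = 0.978), with NFAT1 and p300 in all 8 libraries at chr7:16783134-16783772.

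Slc38a1 (chr15:96571418-96643438) had 5 genotype-only regions, as did Hk2, and more than any other member. These genes are 72.0 and 49.4 kb long, where the member median is 19.8 kb, and a longer window can hold more regions. The scaled H3K27ac length of Slc38a1 was 16.1 kb in each WT library and 15.0 and 16.2 kb in IkE5, overlapping groups (log2 difference -0.04 ± 0.20, limma adjusted p = 0.992). p300 peaks numbered 5 and 4 in WT and 2 and 3 in IkE5, so that both IkE5 libraries were below both WT libraries. At chr15:96583115-96583925, 12.1 kb above the lower-coordinate end, Ikaros and Foxp3 had peaks in all their libraries, and p300 and NFAT1 in both WT and neither IkE5 library, the same pattern as at the 34.0 kb site of Hk2. At chr15:96598860-96599475, 27.7 kb above that end, Ikaros had peaks in both libraries, and Foxp3 and p300 in both WT and neither IkE5 library. NFAT1 had an IkE5 only region at chr15:96626311-96626817. H3K27ac was present in all 4 libraries at each of these 3 sites except WT library 2 at the last one.

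**Figure D5:**
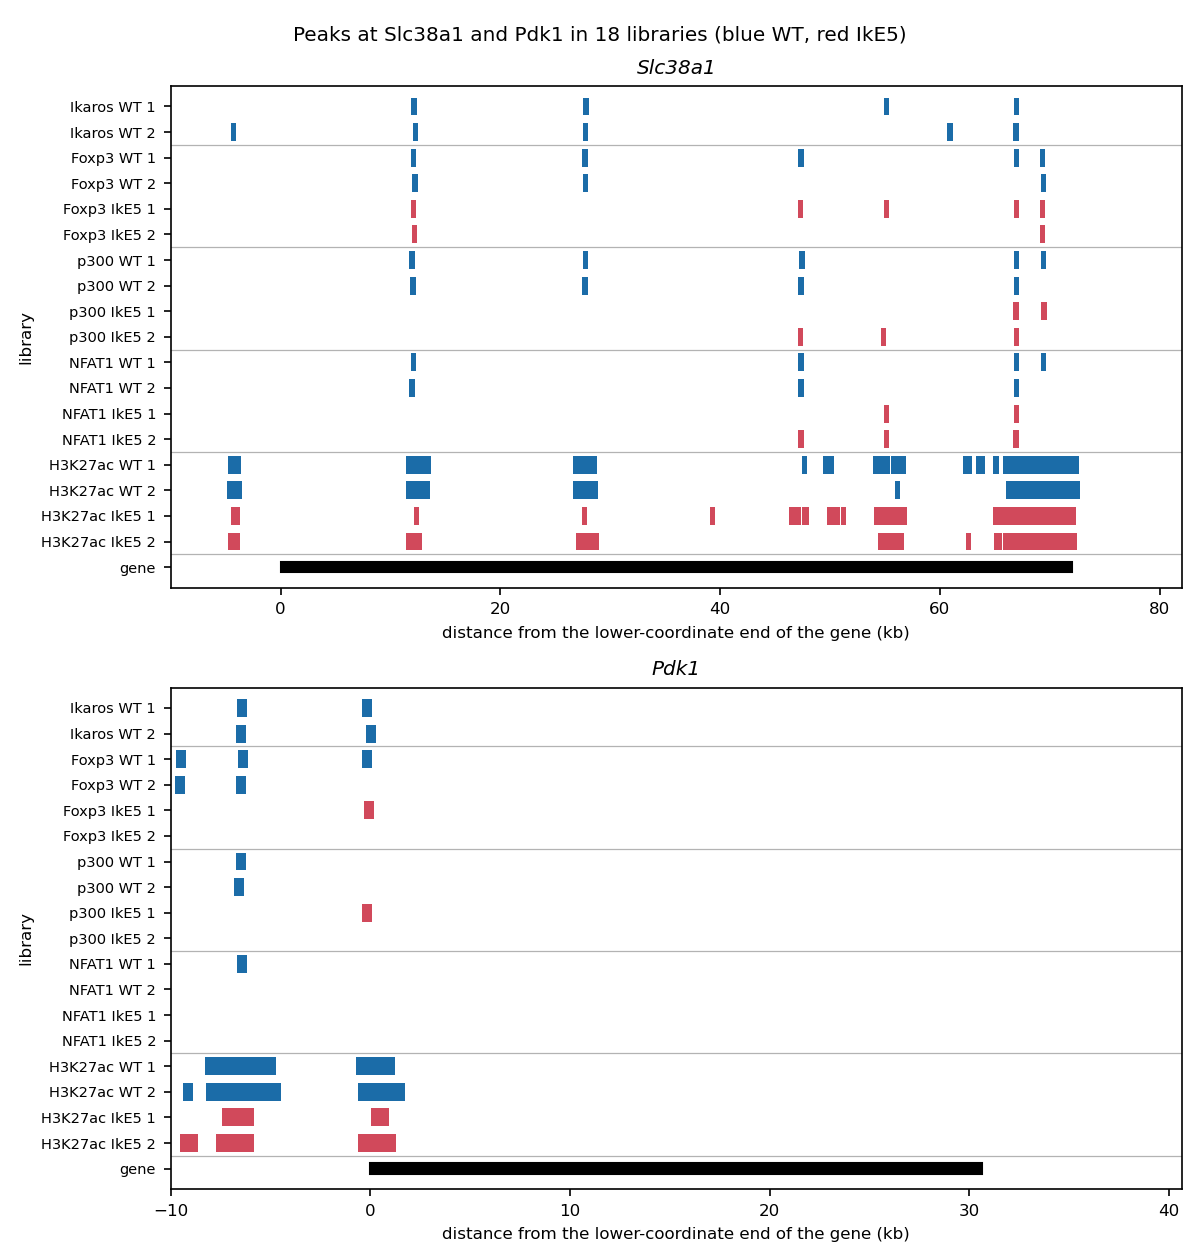
Peaks in 18 libraries (rows, blue WT, red IkE5) along Slc38a1 and Pdk1 and 10 kb on each side, in kb from the lower-coordinate end of the gene (black bar). At Slc38a1 the p300 peaks at 12.1 and 27.7 kb are blue only while H3K27ac is present in both colours (narrower in IkE5 library 1), and at Pdk1 the Foxp3 peaks 9.53 and 6.45 kb before the start are blue only.

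Slc38a2 had 5.21 and 6.45 kb in WT and 6.12 and 7.61 kb in IkE5, overlapping groups (log2 difference 0.20 ± 0.22, limma adjusted p = 0.863). An NFAT1 region 0.797 kb after its start (chr15:96698676-96699186) was WT only, and no IkE5 library had an NFAT1 peak at the gene. An H3K27ac region of 636 bp at chr15:96695409-96696044, 240 bp from the next region, was IkE5 only. At the start of Slc38a2 both Ikaros libraries had a peak.

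Ikaros and Foxp3 shared most Foxp3 sites of these genes. Of 21 regions with Foxp3 in both WT libraries, 18 (85.7%) overlapped a region of both Ikaros libraries, beside 86.9% of 8855 such regions over all genes. The reverse share was 36.0% of 50 Ikaros regions at the members and 57.3% of 13447 over all genes. The 18 shared regions lay at 15 members. Of 115 sites with any factor peak, 25 were seen in a single library, at 15 members, and 0 had a peak in all 14 factor libraries.

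Other genes of the same processes were counted as lists. The lists were drawn with earlier results of these data known, so a called gene in them is a description. Of 31 further glycolysis genes 22 could be tested for H3K27ac length and 0 passed, with a median log2 difference of -0.07. Of 20 further amino acid and metal transporters 14 were tested and 1 passed. This was Slc43a1, which encodes the leucine carrier LAT3, with 2.76 and 1.99 kb in WT and 9.29 and 9.88 kb in IkE5, a log2 difference of 1.66 ± 0.21 (SE, limma adjusted p = 0.0125). Of 32 genes of growth control upstream of glycolysis, 1 passed, namely Sesn1, whose product sestrin 1 holds back the growth kinase mTORC1. Sesn1 had 19.5 and 26.8 kb in WT and 5.16 and 6.95 kb in IkE5 a log2 difference of -1.77 ± 0.24 (SE, limma adjusted p = 0.0161). Without scaling to the library total neither passed (limma adjusted p = 0.277 for Slc43a1 and 0.161 for Sesn1). Of 27 genes of mitochondrial oxidation 0 passed, with a median of 0.03. H3K27ac regions found in WT only lay at 9 of the 32 growth control genes, and in IkE5 only at 3 of them, beside 13.3% and 11.2% of all genes, and in the mitochondrial list 4 and 2 of 27.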

How the data were processed

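ChIP-seq peak lists of 18 libraries were used, and 4 input samples were not analysed here. The authors deposited chromosome, start and end of each peak for each library separately, with no score. Per the submitters' processing notes the build is mm10, and HOMER, MACS2, Bowtie2, bedtools and FastQC are listed without roles. The caller, threshold and control are not given in the sources used here. Per the labels' protocols, cells were fixed with 1% formaldehyde for 5 min (histone mark) or 30 min (factors). Factor peaks are at most 500 bp and at least 463 bp wide, so they carry no graded signal.

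Peaks were assigned with Python 3.11.15. The H3K27ac covered length entered limma 3.58.1 (R 4.3.3), with the prior variance trended, no block, and genes averaging under 1000 bp left out. Calls used a Benjamini-Hochberg adjusted p under 0.05. The script was tested on simulated data. Values printed for single genes follow a rule: every gene with a genotype-only region, the 5 largest log2 differences and 11 well-known genes, with Hk1, Ldhb and Slc16a1 added after their values were seen. The members and lists were chosen with earlier results of these data known. The spread behind each p-value is that between libraries and may be technical only. At most 0.745% of peak intervals were identical between any 2 lists. Alternatives covered the pseudocount, filter, scaling, window, peak width, block, joining overlap and leaving out each library.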

Additional observations from a re-analysis of the deposited data

How the results depend on the processing

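Leaving out each library in turn gave 87 to 396 genes higher and 48 to 307 lower in H3K27ac length (94 and 49 with all libraries), 0 to 1 member higher and 0 to 1 lower. Genes higher and lower numbered 42 and 18 with a pseudocount of 250 bp, 54 and 24 without a filter, 0 and 0 without scaling, 24 and 12 with medians set equal, and 28 and 16 with peaks of at least 1000 bp. With the replicate block they numbered 639 and 611, and 1 member rose (Hk2, limma adjusted p = 0.00346) and 1 fell (Pdk1, limma adjusted p = 0.0260). The labels do not say that the numbers pair libraries: differences between libraries 1 and 2 in the 2 genotypes correlated at r = 0.46 over 12714 genes, which are not independent. The cause of these shifts was not tested.

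Members with a genotype-only region, each library left out in turn, ranged for WT only from 4 to 9 (Foxp3), 7 to 14 (p300), 6 to 11 (NFAT1) and 4 to 14 (H3K27ac), and for IkE5 only from 3 to 10, 4 to 8, 3 to 4 and 4 to 15, since a class then asks for fewer lists. Over the gene body alone, Foxp3 WT only counted 1 member, H3K27ac WT only 0, and p300 in WT library 2 was at 13 members. Joining peaks at an overlap of at least 250 bp gave 4 members with H3K27ac WT only.

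Log2 differences close to 0 changed sign when a library was left out, with ranges of -0.11 to 0.15 (Slc2a1), -0.41 to 0.12 (Slc2a3), -0.41 to 0.24 (Pfkp), -0.06 to 0.01 (Aldoa), -0.03 to 0.28 (Gapdh), -0.11 to 0.22 (Pkm), -0.30 to 0.10 (Ldha), -0.31 to 0.18 (Pfkfb3), -0.11 to 0.25 (Myc), -0.39 to 0.51 (Hif1a), -0.18 to 0.17 (Slc3a2), -0.20 to 0.39 (Slc1a5), -0.10 to 0.01 (Slc38a1). Over the gene body alone Aldoa was at 0.20, Myc at -0.04, Slc3a2 at 0.04 and Slc38a1 at 0.03. With peaks of at least 1000 bp Slc2a1 was at -0.08, Slc7a5 at 0.24 and Slc3a2 at 0.02, and Slc3a2 was at 0.02 without scaling and at 0.02 with medians set equal. A stricter peak threshold could not be set, because the lists carry no score, and read depth is unknown.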
